A study of Mus musculus with 12 samples.

Results

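Immune checkpoint ligands are proteins on or released from a tumor cell that hold back T cells, natural killer cells, or macrophages. 8 genes were chosen by name for such ligands of tumor cells, *Cd274*, *Cd276*, *Cd47*, *Cd200*, *Nt5e*, *Pvr*, *Lgals9*, and *Tnfrsf14*, and all 8 were among the 30705 gene names measured. Each was followed across 4 groups of 3 RNA-seq samples, all from one murine melanoma cell line with Braf V600E. The line came from a C57BL/6 mouse with the alleles Braf+/LSL-V600E, Tyr::CreERT2+/o, and p16INK4a-/-, and all groups, the scramble control included, therefore carried Braf V600E and lacked p16INK4a. CRISPR/CAS9 had been aimed at the gene of COX-1 in *ptgs1*-KO, of COX-2 in *ptgs2*-KO, and of the synthase mPGES-1 in *ptges*-KO cells, all enzymes of prostaglandin E2 (PGE2) synthesis. Cells had been selected with puromycin and grown from limiting dilution, so a group stands for a few subclones, and a difference between subclones and an effect of the lost gene cannot be told apart. Cells were cultured in vitro, and the question here was whether the mRNA levels of the ligands differed between control cells and cells lacking an enzyme of the PGE2 pathway.

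The ligands act through different receptors. CD274 (PD-L1) binds PD-1 on T cells, and CD276 (B7-H3) is a related surface protein whose receptor is unsettled. CD47 binds SIRPα on macrophages and holds back phagocytosis, CD200 binds CD200R1 on myeloid cells, and TNFRSF14 (HVEM) binds BTLA and CD160. PVR (CD155) binds the inhibitory receptors TIGIT and CD96 and the activating receptor CD226. Galectin-9, made from *Lgals9*, is a sugar-binding protein known as a ligand of TIM-3, the product of *Havcr2*. CD73, made from *Nt5e*, turns AMP into adenosine, which dampens T cells through adenosine receptors.

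mRNA levels were RPKM values (read numbers scaled by gene length and by sequencing depth), in which genes can be compared per length. Depth was estimated at 13.5 to 17.2 M reads per sample from the smallest steps in the values. The targeted mRNA fell to 10.6% of the scramble mean for *Ptgs1* in *ptgs1*-KO cells, 10.5% for *Ptgs2* in *ptgs2*-KO cells, and 47.9% for *Ptges* in *ptges*-KO cells. In *ptgs1*-KO cells the other target genes were lower as well, *Ptges* at 70.2% (adjusted p = 0.00110) and *Ptgs2* at 78.5% of the scramble mean (adjusted p = 0.0386), so this group did not differ from scramble in *Ptgs1* alone. *ptgs1*-KO replicate 3 stood apart, with 47672 RPKM of the ribosomal RNA precursor *Rn45s* against 2169 to 17613 in the other 11 samples. Of 10 melanocyte markers, *Sox10*, *Mlana*, *Tyrp1*, *Dct*, and *Kit* were listed at 0 in all 12 samples, and *Mitf* alone reached a mean of 1 RPKM, so the cells are named by their label and not by these markers. Of 8 T and NK cell markers, 6 were at 0 throughout, *Cd3d*, *Cd3e*, and *Cd3g* among them, and the summed level of the list was at most 0.08 RPKM in any sample. The summed level of 8 myeloid markers was 8.12 to 11.1 RPKM in scramble, 7.24 to 9.64 in *ptgs1*-KO, 6.85 to 8.21 in *ptgs2*-KO, and 6.38 to 6.73 in *ptges*-KO samples. It came mostly from *Cd14* and *Cd68*, with *Adgre1* and *Lyz2* at 0. The sum of 6 fibroblast markers was 8.34 to 8.89 RPKM in scramble, 10.9 to 12.5 in *ptgs1*-KO, 3.81 to 4.98 in *ptgs2*-KO, and 5.03 to 6.01 in *ptges*-KO samples, mostly from *Pdgfra*, with *Dcn* and *Lum* at 0. The part of these 2 sums in the results below was not tested. In bulk RNA, fewer cells with a transcript and less of it per cell cannot be told apart.

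*Lgals9*, *Cd47*, and *Cd276* were called for a difference among the 4 groups (limma F test), *Lgals9* in all 18 settings tried (other scalings, pseudocount, filter, and block, and each sample left out), *Cd47* in 16, and *Cd276* in 6. The 250 bases before their transcription start sites, shown because the mRNA of these genes is what differed, were read from RefSeq on GRCm38.p6, which held 7 of the 8 members (not *Pvr*). They lie at chr11:78984925-78985174 on the minus strand for *Lgals9*, chr16:49855404-49855653 on the plus strand for *Cd47*, and chr9:58555034-58555283 on the minus strand for *Cd276*. Capitals mark matches, on either strand, to GAAA and GAAA parted by 2 bases (the core of the interferon-stimulated response element), TGACG (a part of the cAMP response element), and GGGCGG (the GC box).

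Lgals9: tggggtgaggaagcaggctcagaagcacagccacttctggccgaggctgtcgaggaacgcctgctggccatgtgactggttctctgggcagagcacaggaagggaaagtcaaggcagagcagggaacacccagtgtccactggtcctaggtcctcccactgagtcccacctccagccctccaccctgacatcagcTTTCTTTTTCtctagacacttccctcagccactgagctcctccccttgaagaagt
Cd47: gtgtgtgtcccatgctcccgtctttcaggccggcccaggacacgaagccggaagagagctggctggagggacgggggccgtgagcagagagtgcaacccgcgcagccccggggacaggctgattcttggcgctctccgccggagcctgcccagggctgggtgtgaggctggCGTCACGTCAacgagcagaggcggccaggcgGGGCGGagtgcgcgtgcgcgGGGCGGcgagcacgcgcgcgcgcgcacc
Cd276: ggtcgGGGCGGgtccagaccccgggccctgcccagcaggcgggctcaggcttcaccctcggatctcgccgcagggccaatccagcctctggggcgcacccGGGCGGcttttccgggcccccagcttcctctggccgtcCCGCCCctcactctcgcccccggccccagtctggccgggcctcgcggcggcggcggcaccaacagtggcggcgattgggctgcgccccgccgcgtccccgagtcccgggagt

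*Lgals9* held a single match to the interferon-stimulated element core, on the opposite strand at bases 55 to 46 before the start, a motif present in 2.98% of all 32851 promoter windows of that length. *Cd47* held 2 adjacent TGACG matches on the opposite strand, from 79 to 70 bases before the start (17.8% of all windows held at least 1), and 2 GGGCGG matches. RefSeq held another entry for *Cd47*, with its window at chr16:49855411-49855660 and the same matches. There the TGACG matches lay 86 to 77 bases before the start. *Cd276* held 3 GGGCGG matches, a motif found in 32.7% of windows. None of the 3 windows held TGANTCA (AP-1, 6.75% of windows), TTCNNNGAA (the gamma-activated site, 7.02%), or TATAAA (the TATA box, 12.4%). The letters are a description and do not show that a factor bound there. GENCODE M21 starts the *Cd47* gene at base 49800533 of chromosome 16, upstream of these RefSeq starts. It starts the *Cd276* gene at base 58555437 of chromosome 9, so the *Cd276* window lies within the GENCODE gene.

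The levels of the 8 members ran from highly expressed to listed at 0 in nearly all samples. *Pvr* had the highest mean over the 12 samples, 160.3 RPKM, and ranked 790 among 18623 genes detected in any sample. *Cd47* followed at 37.1 RPKM, *Lgals9* at 6.06, and *Cd276* at 1.71. *Cd274* had a mean of 0.652 RPKM and *Nt5e* of 0.394, and *Tnfrsf14* and *Cd200* were near 0. *Pvr* made up 71.8% to 80.9% of the summed level of the 8 genes in each sample, *Cd47* 14.7% to 21.8%, and *Lgals9* 1.65% to 4.58%. The order *Pvr*, *Cd47*, *Lgals9*, *Cd276* was the same in every sample, with no overlap of their ranges.

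**Figure D1:**
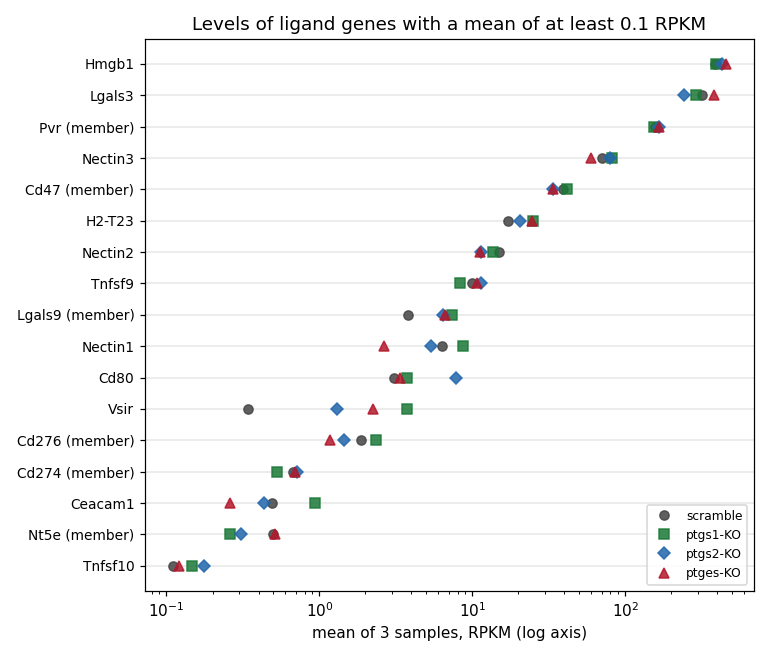
Mean RPKM of 3 samples per group (log axis) for those 17 genes that reached an overall mean of 0.1 RPKM among the 8 members and 23 other ligand genes, with a symbol for each group. *Pvr* and *Cd47* are the highest of the members, and the widest spread between groups is that of *Vsir*.

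A gene was tested if its mean over all 12 samples reached 1 RPKM, and 4 of the 8 members passed this filter. The test was limma's moderated test on log2(RPKM + 1) in a single model of all 12 samples, with p-values adjusted by Benjamini-Hochberg over all 11282 genes tested, and a gene was called at an adjusted p under 0.05. Fold changes on this scale understate those of genes near 1 RPKM. Each knockout was compared with the same 3 scramble samples, so these comparisons are not independent of each other. Of the 4 members tested, 1 was called in *ptgs1*-KO cells against scramble, where 9.26% of all genes were called. It was 1 in *ptgs2*-KO cells (11.1% of all genes) and 1 in *ptges*-KO cells (26.3%), and in each of these comparisons the member was *Lgals9*. Between knockouts, 1 member was called in *ptgs2*-KO against *ptgs1*-KO cells (23.6% of all genes) and 2 in *ptges*-KO against *ptgs1*-KO cells (30.2%). In *ptges*-KO against *ptgs2*-KO cells limma called 0 of the 4 (16.6% of all genes), and 0 of them had an unadjusted p under 0.05, the lowest being 0.319. In the test for any difference among the 4 groups, 3 of the 4 were called, beside 38.6% of all genes.

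The median log2 fold change of the 4 tested members against scramble was 0.15 in *ptgs1*-KO, -0.06 in *ptgs2*-KO, and -0.06 in *ptges*-KO cells, where the median of all genes tested was 0.01, 0.01, and -0.03. Each member is therefore described on its own.

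*Lgals9* mRNA was higher in all 3 knockouts than in scramble cells, and the 9 knockout samples lay above the 3 scramble samples. Of all genes tested, 26.9%, 35.1%, and 43.3% had no overlap with scramble, on either side, for *ptgs1*-KO, then *ptgs2*-KO, then *ptges*-KO samples. The gene lies at chr11:78962974-78984946 on the minus strand (GRCm38). Its level was 3.37, 3.83, and 4.14 RPKM in the scramble samples. It was 7.21, 6.71, and 8.28 RPKM in *ptgs1*-KO, 6.28, 6.50, and 6.64 in *ptgs2*-KO, and 6.82, 6.40, and 6.57 in *ptges*-KO samples. The lowest knockout sample thus exceeded the highest scramble sample by more than the spread within any of these groups.

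From a scramble mean of 3.78 ± 0.387 RPKM (SD, n = 3), *Lgals9* rose to 7.40 ± 0.802 in *ptgs1*-KO cells, a ratio of the means of 1.96 and a log2 fold change of 0.81 (SE 0.10, adjusted p = 0.000186). In *ptgs2*-KO cells the mean was 6.47 ± 0.181 RPKM, a ratio of 1.71 and a log2 fold change of 0.65 (SE 0.10, adjusted p = 0.00134). In *ptges*-KO cells it was 6.60 ± 0.211 RPKM, a ratio of 1.75 and a log2 fold change of 0.67 (SE 0.10, adjusted p = 0.000479). Leaving out *ptgs1*-KO replicate 3, the sample with the most *Rn45s* and the highest *Lgals9* value, gave a log2 fold change of 0.74 in *ptgs1*-KO cells (adjusted p = 0.000921). The estimated number of reads behind a value was 85.6 to 192 per sample.

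The order of the *Lgals9* means was *ptgs1*-KO, *ptges*-KO, *ptgs2*-KO, and scramble, and the 3 knockouts did not differ beyond their spread. The log2 difference of *ptgs2*-KO from *ptgs1*-KO cells was -0.16 (95% interval -0.38 to 0.06, adjusted p = 0.275). That of *ptges*-KO cells was -0.14 from *ptgs1*-KO (-0.36 to 0.08, adjusted p = 0.322) and 0.02 from *ptgs2*-KO cells (-0.20 to 0.24, adjusted p = 0.902). With 3 samples per group, true differences anywhere within these intervals remain compatible with the values.

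**Figure D2:**
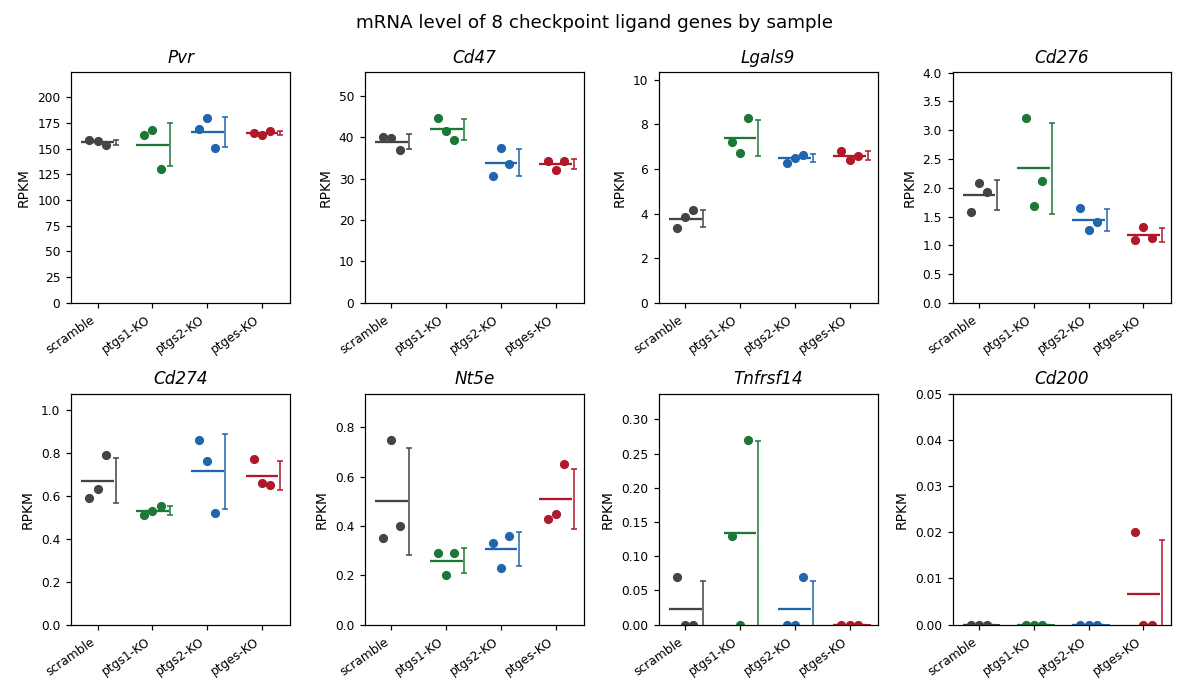
RPKM (linear axis from 0, a scale of its own for each gene) of the 8 ligand genes in each of the 12 samples, with replicates 1 to 3 from left to right, the mean as a line, and an error bar of ± 1 SD. *Lgals9* is higher in all 9 knockout samples than in the scramble samples, *Pvr* overlaps between most groups, and *Cd200* and *Tnfrsf14* are at 0 in most samples.

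*Cd47* mRNA was lower in *ptgs2*-KO and *ptges*-KO cells than in *ptgs1*-KO cells, and no knockout was called against scramble. The gene lies at chr16:49800533-49915010 on the plus strand. The scramble samples had 40.0, 39.9, and 36.8 RPKM, and the *ptgs1*-KO samples 44.6, 41.6, and 39.4 RPKM. The *ptgs2*-KO samples had 30.8, 37.4, and 33.5 RPKM, and the *ptges*-KO samples 34.4, 32.0, and 34.3 RPKM. All 6 samples of these last groups lay below the 3 *ptgs1*-KO samples, where 35.2% of all genes did not overlap in the first comparison and 40.3% in the second.

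The *Cd47* means were 41.9 ± 2.61 RPKM in *ptgs1*-KO, 38.9 ± 1.79 in scramble, 33.9 ± 3.35 in *ptgs2*-KO, and 33.5 ± 1.32 in *ptges*-KO cells (SD, n = 3 each), and the groups differed (limma F test, adjusted p = 0.0206), though not without *ptgs1*-KO replicate 1 (adjusted p = 0.0566) or *ptges*-KO replicate 2 (adjusted p = 0.0569). The log2 difference from *ptgs1*-KO cells was -0.30 for *ptgs2*-KO (SE 0.08, adjusted p = 0.0199) and -0.31 for *ptges*-KO cells (SE 0.08, adjusted p = 0.0142). The *ptges*-KO samples also lay below the scramble samples without overlap, where 43.3% of all genes did not overlap. The log2 difference was -0.21 and was not called (adjusted p = 0.0873). For *ptgs2*-KO against scramble it was -0.20 (adjusted p = 0.152), and for *ptgs1*-KO against scramble 0.10 (adjusted p = 0.507). No neighbouring means in the order were called, since *ptges*-KO and *ptgs2*-KO cells differed by -0.01 (95% interval -0.19 to 0.17).

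These *Cd47* calls were small and depended on single samples. Without *ptgs1*-KO replicate 1, the log2 difference was -0.25 for *ptgs2*-KO (adjusted p = 0.0697) and -0.27 for *ptges*-KO cells (adjusted p = 0.0537). The *ptgs2*-KO call was also lost without *ptgs2*-KO replicate 1 (adjusted p = 0.0784) or replicate 3 (adjusted p = 0.0591) and with only those 2 groups in the model (adjusted p = 0.0738). The *ptges*-KO call was also lost without *ptges*-KO replicate 2 (adjusted p = 0.0645). Both calls held without *ptgs1*-KO replicate 3, at -0.34 (adjusted p = 0.0173) and -0.35 (adjusted p = 0.0125).

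*Cd276* mRNA was lower in *ptges*-KO than in *ptgs1*-KO cells, at a level near the limit of the filter. The gene lies at chr9:58524298-58555437 on the minus strand, and its estimated reads were 63.6 to 173 per sample. The level was 1.58, 2.09, and 1.93 RPKM in scramble, 3.21, 1.68, and 2.12 in *ptgs1*-KO, 1.65, 1.27, and 1.41 in *ptgs2*-KO, and 1.09, 1.32, and 1.13 in *ptges*-KO samples. *ptgs1*-KO replicate 1 was the highest of all, and the *ptges*-KO samples lay below all scramble and *ptgs1*-KO samples. Of all genes tested, 43.3% did not overlap in the comparison with scramble and 40.3% in that with *ptgs1*-KO samples.

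The *Cd276* means were 2.34 ± 0.788 RPKM in *ptgs1*-KO, 1.87 ± 0.261 in scramble, 1.44 ± 0.192 in *ptgs2*-KO, and 1.18 ± 0.123 in *ptges*-KO cells (SD, n = 3 each; limma F test, adjusted p = 0.0355). This F test was past the threshold in 6 of 18 settings. It missed it with the replicate block (adjusted p = 0.0520), with no filter (0.0556), after quantile normalization (0.136), and without any of 9 of the 12 samples, *ptgs1*-KO replicate 3 among them (0.0553). The log2 difference of *ptges*-KO from *ptgs1*-KO cells was -0.59 (SE 0.16, adjusted p = 0.0130), a ratio of the means of 0.505. It was kept when any sample was left out and missed the threshold after quantile normalization (-0.44, adjusted p = 0.0506). *ptges*-KO against scramble cells gave -0.39 (SE 0.16), which was not called (adjusted p = 0.0836). The same difference was called without *ptgs1*-KO replicate 1, which enters only through the common estimate of the spread (adjusted p = 0.0344), and with only the 2 groups in the model (adjusted p = 0.0448). *ptgs2*-KO against *ptgs1*-KO cells gave -0.43 (adjusted p = 0.0673), called only without *ptgs1*-KO replicate 2 (-0.57, adjusted p = 0.0239). Neighbouring means in the order did not differ, with adjusted p = 0.498 for *ptgs1*-KO and scramble, 0.376 for scramble and *ptgs2*-KO, and 0.523 for *ptgs2*-KO and *ptges*-KO cells. Without *ptgs1*-KO replicate 1 or without *ptges*-KO replicate 2, *Lgals9* was the 1 member still called for any difference among the 4 groups.

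*Pvr*, the most abundant of the ligands, did not differ detectably between any pair of groups. The gene lies at chr7:19903578-19921160 on the minus strand, where the annotation also places the antisense gene *Gm16251* and the pseudogene *Gm16184*. The scramble samples had 158, 157, and 153 RPKM and the *ptgs1*-KO samples 163, 168, and 129.7 RPKM. The *ptgs2*-KO samples had 169, 179.6, and 150.4 RPKM, and the *ptges*-KO samples 165, 163, and 167 RPKM. The *ptges*-KO samples lay above the scramble samples without overlap, where 43.3% of all genes did not overlap. The difference was not called (adjusted p = 0.582). The lowest value was that of *ptgs1*-KO replicate 3, the sample with the most *Rn45s*.

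The *Pvr* means were 156 ± 2.37 RPKM in scramble, 154 ± 20.9 in *ptgs1*-KO, 166 ± 14.8 in *ptgs2*-KO, and 165 ± 1.86 in *ptges*-KO cells (SD, n = 3 each; limma F test, adjusted p = 0.600). Against scramble, the log2 difference was -0.03 in *ptgs1*-KO (95% interval -0.24 to 0.17), 0.09 in *ptgs2*-KO (-0.12 to 0.29), and 0.08 in *ptges*-KO cells (-0.13 to 0.29). Without *ptgs1*-KO replicate 3 the first of these was 0.08 (adjusted p = 0.537). Roughly 5510 to 8378 estimated reads lay behind each value.

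**Figure D3:**
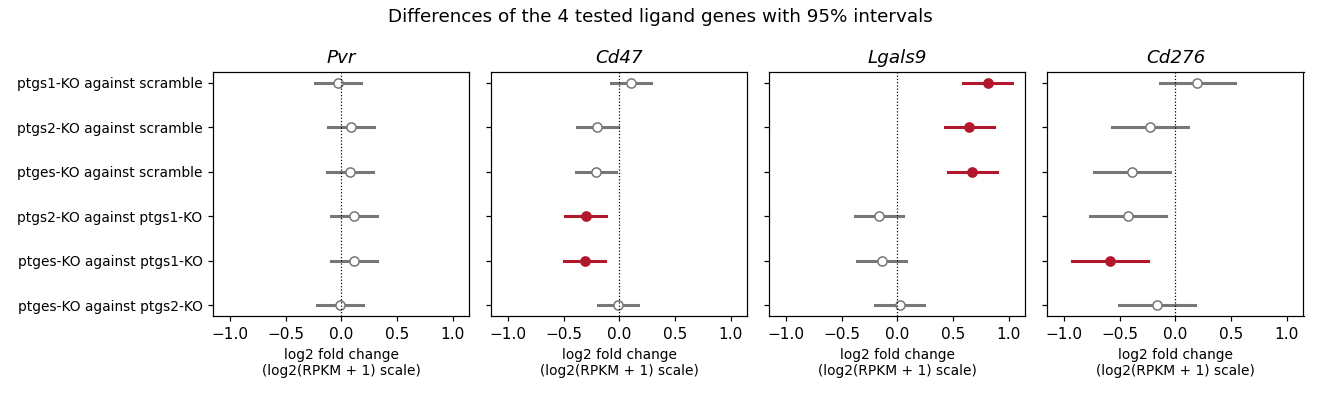
Log2 fold changes on the log2(RPKM + 1) scale (x axis) of the 4 tested members in the 6 comparisons (y axis), with 95% intervals. Red filled points passed an adjusted p under 0.05 and open gray points did not, and *Lgals9* is the only member with called differences from scramble, of 0.65 to 0.81.

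*Cd274*, the gene of PD-L1 (chr19:29367455-29388095, plus strand), was detected in all samples at a low level. It had 0.59, 0.63, and 0.79 RPKM in scramble and 0.51, 0.53, and 0.55 RPKM in *ptgs1*-KO samples. It had 0.86, 0.76, and 0.52 RPKM in *ptgs2*-KO and 0.77, 0.66, and 0.65 RPKM in *ptges*-KO samples. The *ptgs1*-KO samples lay below the scramble samples without overlap, where 26.9% of all genes tested did not overlap. The estimated reads were 27.3 to 45.2 per sample. *Cd274* was under the filter, and with no filter the groups did not differ detectably (limma F test, adjusted p = 0.361).

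*Nt5e*, the gene of CD73 (chr9:88327197-88372092, plus strand), was lower still. Its level was 0.35, 0.75, and 0.40 RPKM in scramble, 0.29, 0.20, and 0.29 in *ptgs1*-KO, 0.33, 0.23, and 0.36 in *ptgs2*-KO, and 0.43, 0.45, and 0.65 in *ptges*-KO samples. The *ptgs1*-KO samples lay below all scramble and *ptges*-KO samples, and *ptgs2*-KO samples overlapped the scramble samples. Of all genes tested, 26.9% did not overlap between *ptgs1*-KO and scramble samples and 40.3% between *ptges*-KO and *ptgs1*-KO samples. With no filter the groups did not differ detectably (limma F test, adjusted p = 0.124), at 11.3 to 45.8 estimated reads per sample.

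*Tnfrsf14* (chr4:154921933-154928563, minus strand) was listed at 0 in 8 of 12 samples. Its other values were 0.07 RPKM in scramble replicate 1, 0.13 and 0.27 in *ptgs1*-KO replicates 1 and 3, and 0.07 in *ptgs2*-KO replicate 3, which come to about 1, 2, 5, and 1 reads. *Cd200* (chr16:45382135-45409053, minus strand) was listed at 0 in 11 samples and at 0.02 RPKM, about 1 read, in *ptges*-KO replicate 1. No difference between groups could be measured for either gene at this depth.

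The receptors of the ligands were measured in the same samples. Of 20 receptor genes, 2 passed the filter, *Tigit* and the adenosine receptor gene *Adora2b*. *Pdcd1* and *Cd226* were at 0 in all samples, and *Cd200r1* reached at most 0.03 RPKM. *Havcr2* lay between 0 and 0.26 RPKM. Of the 2 tested, limma called 1 in *ptgs2*-KO (11.1% of all genes) and 1 in *ptges*-KO cells (26.3%) against scramble, both higher. In *ptgs1*-KO cells it called 0 (9.26% of all genes), and 1 had an unadjusted p under 0.05. The share of all genes at that unadjusted threshold was not computed.

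*Tigit*, whose product is the inhibitory receptor of PVR and is known from T and NK cells, was higher in *ptges*-KO and *ptgs2*-KO cells. Its level was 5.80, 7.18, and 7.49 RPKM in scramble and 9.06, 6.42, and 6.31 in *ptgs1*-KO samples. It was 11.7, 13.04, and 10.5 RPKM in *ptgs2*-KO and 36.3, 28.8, and 31.1 in *ptges*-KO samples. The last 2 groups lay above the first 2 without overlap. Against scramble, 35.1% of all genes did not overlap in *ptgs2*-KO and 43.3% in *ptges*-KO samples. Against *ptgs1*-KO it was 35.2% and 40.3%.

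Against scramble, *Tigit* rose by a log2 fold change of 2.08 in *ptges*-KO cells (SE 0.14, adjusted p = 4.93e-07), a ratio of the means of 4.70. In *ptgs2*-KO cells it rose by 0.71 (SE 0.14, adjusted p = 0.00697). Of the 8 T and NK cell markers, *Cd3d*, *Cd3e*, *Cd3g*, *Cd2*, *Nkg7*, and *Ncr1* were at 0 in all samples. *Cd8a* reached at most 0.08 RPKM and *Cd4* 0.02. *Ptprc*, from the myeloid list, had means of 0.02 RPKM in scramble, 0.01 in *ptgs1*-KO, 0.083 in *ptgs2*-KO, and 0.08 in *ptges*-KO cells. Which cells the *Tigit* mRNA came from was not tested. *Cd96*, the other inhibitory PVR receptor gene, reached at most 0.13 RPKM.

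*Sirpa*, the gene of the CD47 receptor, was low in all groups but *ptgs1*-KO. Its level was 0.11, 0.03, and 0.18 RPKM in scramble, 1.45, 1.60, and 1.54 in *ptgs1*-KO, 0.34, 0.15, and 0.11 in *ptgs2*-KO, and 0.07, 0.06, and 0.10 in *ptges*-KO samples. Its mean over all samples was under the filter. With no filter, the log2 difference of *ptgs1*-KO from scramble cells was 1.19 (SE 0.07, adjusted p = 3.76e-06). *Cd47* mRNA was also highest on average in *ptgs1*-KO cells, but it was not called there against scramble.

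Other ligands of the same receptor families were taken from a list of 23 genes, of which 9 passed the filter. Against scramble, 2 were called higher in *ptgs1*-KO cells (9.26% of all genes were called), 2 higher and 1 lower with *ptgs2* lost (11.1%), and 3 higher and 2 lower in *ptges*-KO cells (26.3%). Their median log2 fold changes were 0.20, 0.17, and 0.10. All 9 were called for any difference among the 4 groups, beside 38.6% of all genes, and a gene that is high in 1 group can pass a filter on the overall mean through that group.

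*Vsir*, the gene of the inhibitory ligand VISTA, was higher in every knockout than in scramble cells. It had 0.29, 0.44, and 0.29 RPKM in scramble and 3.66, 4.05, and 3.43 in *ptgs1*-KO samples. It had 1.69, 1.14, and 1.07 RPKM in *ptgs2*-KO and 2.30, 2.41, and 2.06 in *ptges*-KO samples. The 9 knockout samples lay above the scramble samples. Of all genes tested, 26.9% in *ptgs1*-KO, 35.1% in *ptgs2*-KO, and 43.3% in *ptges*-KO samples had no overlap with scramble. The log2 fold changes were 1.81 (adjusted p = 7.41e-07), 0.77 (adjusted p = 0.00207), and 1.28 (adjusted p = 1.60e-05) in the same order of groups (SE 0.13 each). With a pseudocount of 0.1 in place of 1 they were 3.13, 1.66, and 2.44, and the ratio of the *ptgs1*-KO to the scramble mean was 10.9. *Vsir* overlaps *Cdh23* on the other strand, and *Cdh23* was at most 0.22 RPKM.

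*Cd80*, whose product binds CD28, CTLA-4, and, on the same cell, PD-L1, was higher in *ptgs2*-KO cells. It had 3.00, 2.64, and 3.65 RPKM in scramble and 7.84, 8.02, and 7.50 in *ptgs2*-KO samples, a log2 fold change of 1.11 (SE 0.14, adjusted p = 0.000290). The *ptgs1*-KO samples had 3.99, 4.35, and 2.84 RPKM and the *ptges*-KO samples 3.80, 3.40, and 2.82 RPKM, both overlapping scramble.

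The nectins are relatives of PVR, and nectin-2 and nectin-3 bind TIGIT or PVR itself. *Nectin1* had 5.72, 6.51, and 6.72 RPKM in scramble, 9.54, 7.56, and 9.04 in *ptgs1*-KO, 6.18, 5.15, and 4.68 in *ptgs2*-KO, and 3.06, 2.51, and 2.33 in *ptges*-KO samples. In *ptges*-KO cells it fell by 1.01 on the log2 scale against scramble (SE 0.13, adjusted p = 0.000101). *Nectin2* fell by 0.36 in *ptgs2*-KO (SE 0.10, adjusted p = 0.0348) and by 0.39 in *ptges*-KO cells (SE 0.10, adjusted p = 0.0124) from a scramble mean of 14.9 ± 1.20 RPKM. The first call was lost when any scramble or *ptgs2*-KO sample or *ptges*-KO replicate 2 was left out (adjusted p up to 0.142), and the second without scramble replicate 1 (0.0585) or *ptges*-KO replicate 3 (0.0520). *Nectin3* was not called against scramble but was lower in *ptges*-KO than in *ptgs1*-KO (log2 difference -0.45, adjusted p = 0.00125) and *ptgs2*-KO cells (-0.41, adjusted p = 0.00481), with means of 59.5 ± 2.20, 82.2 ± 9.57, and 79.3 ± 3.24 RPKM. In *ptges*-KO cells against scramble, *Tigit* was thus higher and *Nectin1* and *Nectin2* were lower, the *Nectin2* call depending on single samples. *Nectin3* and *Pvr* were not called. Whether these differences are related was not tested.

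*Pdcd1lg2*, the gene of the second PD-1 ligand, was at most 0.09 RPKM, and *Vtcn1*, related to *Cd276*, at most 0.05 RPKM.

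**Figure D4:**
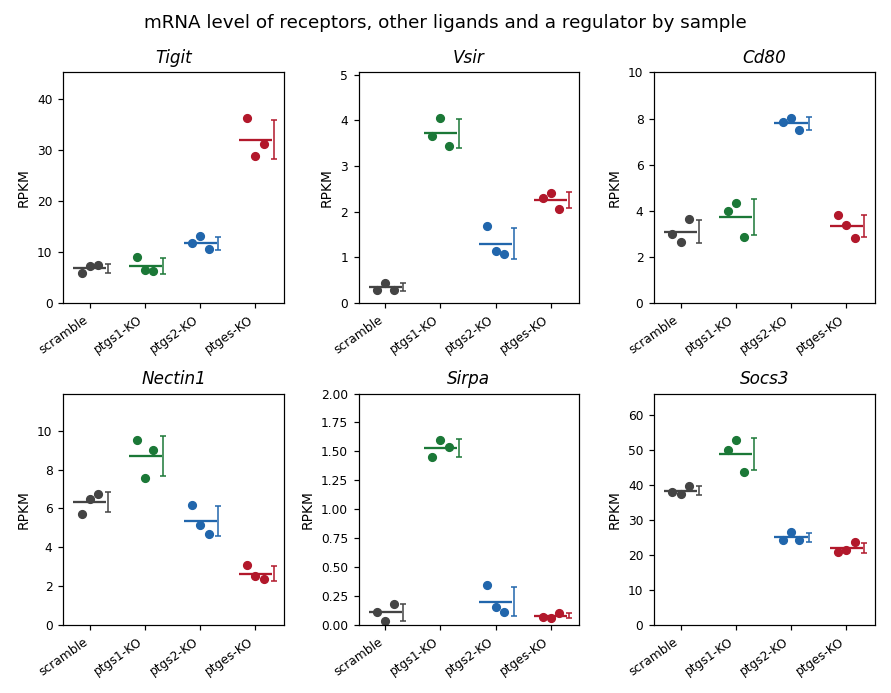
RPKM (linear axis from 0, a scale of its own for each gene) of *Tigit*, *Vsir*, *Cd80*, *Nectin1*, *Sirpa*, and *Socs3* in each of the 12 samples, with the mean as a line and an error bar of ± 1 SD. *Tigit* is highest in the *ptges*-KO samples at 28.8 to 36.3 RPKM, *Cd80* in the *ptgs2*-KO samples, and *Vsir* and *Sirpa* in the *ptgs1*-KO samples.

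In the adenosine pathway, to which *Nt5e* belongs, 7 of 17 genes passed the filter. Against scramble, limma called 0 in *ptgs1*-KO (9.26% of all genes), 0 in *ptgs2*-KO (11.1%), and 1, lower, in *ptges*-KO cells (26.3%). At an unadjusted p under 0.05 there were 3 and 1 in the first 2 comparisons. The share of all genes at that unadjusted threshold was not computed, so these counts cannot be set against the shares above. *Entpd1*, whose product CD39 makes the AMP that CD73 uses, was at most 0.03 RPKM, and *Enpp1*, another AMP-forming enzyme gene, at most 0.07 RPKM. *Ada*, the gene of the deaminase that removes adenosine, had means of 2.71 ± 0.571 RPKM in scramble, 1.63 ± 0.450 in *ptgs1*-KO, 4.22 ± 0.312 in *ptgs2*-KO, and 3.14 ± 0.674 in *ptges*-KO cells (SD, n = 3 each). No knockout was called against scramble for *Ada*, and *ptgs1*-KO cells had less than the other knockouts.

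Of 7 other galectin genes, 3 passed the filter, *Lgals1*, *Lgals3*, and *Lgals8*. Against scramble, limma called 0 of them in *ptgs1*-KO (9.26% of all genes), *ptgs2*-KO (11.1%), and *ptges*-KO cells (26.3%). *Lgals3* was called for any difference among the groups (adjusted p = 0.0145) and was higher in *ptges*-KO (383 ± 57.5 RPKM) than in *ptgs2*-KO cells (241 ± 52.2 RPKM), a log2 difference of 0.68 (SE 0.15, adjusted p = 0.00658). At an unadjusted p under 0.05 there were 0 in *ptgs1*-KO, 1 in *ptgs2*-KO, and 0 in *ptges*-KO cells, a threshold at which the share of all genes was not computed. *Lgals1* was the highest, with means of 3723 to 4798 RPKM, and *Lgals8* had means of 14.7 to 15.2 RPKM. *Lgals9* was thus the only tested galectin gene called against scramble, though the difference between its change and theirs was not tested.

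Of 27 genes that regulate the ligands, 25 passed the filter. Against scramble, 3 of the 25 were called, all higher, in *ptgs1*-KO cells, where 9.26% of all genes were called. In *ptgs2*-KO cells 2 were higher and 1 lower (11.1% of all genes), and in *ptges*-KO cells 3 were higher and 6 lower (26.3%). *Socs3*, an inhibitor of cytokine signaling through JAK and STAT proteins, had means of 38.4 ± 1.27 RPKM in scramble, 48.9 ± 4.62 in *ptgs1*-KO, 24.99 ± 1.39 in *ptgs2*-KO, and 22.0 ± 1.52 in *ptges*-KO cells (SD, n = 3 each). It fell by 0.60 in *ptgs2*-KO (SE 0.08, adjusted p = 0.000666) and by 0.78 in *ptges*-KO cells (SE 0.08, adjusted p = 3.42e-05) on the log2 scale. Its rise of 0.34 in *ptgs1*-KO cells (adjusted p = 0.0259) was lost without scramble replicate 1, 2, or 3 or *ptgs1*-KO replicate 1 or 2, with an adjusted p of up to 0.102. With only the 2 groups in the model this call was lost as well (adjusted p = 0.0541).

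*Qpctl*, whose product modifies CD47 so that SIRPα can bind it, had means of 24.8 ± 0.929 RPKM in scramble and 19.99 ± 1.12 in *ptges*-KO cells, a log2 difference of -0.30 (SE 0.10, adjusted p = 0.0456). Its F test was not called (adjusted p = 0.105), and the difference was called in 10 of 19 settings, being lost without any 1 of the 3 scramble samples, *ptgs1*-KO replicate 2, *ptgs2*-KO replicates 2 or 3, or *ptges*-KO replicates 2 or 3 (adjusted p up to 0.132). It was also lost with no filter (adjusted p = 0.0657). *Cmtm6*, whose product keeps PD-L1 at the cell surface, was lower in *ptges*-KO than in *ptgs1*-KO cells, by a log2 difference of -0.31 (SE 0.11, adjusted p = 0.0453), with means of 20.5 ± 3.32 and 25.4 ± 1.20 RPKM. Its F test was not called (adjusted p = 0.110), and the difference was called in 7 of 19 settings (-0.21, adjusted p = 0.208, without *ptges*-KO replicate 2, and also lost without any scramble or *ptgs1*-KO sample, *ptgs2*-KO replicate 2, or *ptges*-KO replicate 3). The call was also lost with no filter (adjusted p = 0.0691), after quantile normalization (0.0576), and with only the 2 groups in the model (0.0987).

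The genes whose log2 values followed a member most closely over the 12 samples were listed as a description. They were *Syt13* (Pearson r = 0.930) and *Gtpbp10* (0.924) for *Lgals9*, *Dmpk* (0.9497) and *Vps37d* (0.949) for *Cd47*, and *Slc25a26* (0.917) and *Chst11* (0.914) for *Cd276*. The samples share their groups, so group differences enter these values. *Gtpbp10* had means of 3.48 RPKM in scramble, 11.05 in *ptgs1*-KO, 9.47 in *ptgs2*-KO, and 8.27 in *ptges*-KO cells. The gene was chosen for its correlation with *Lgals9*, so its low scramble mean is not a separate result.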

How the data were processed

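RNA of 12 samples, 4 groups of 3 by their labels, had been sequenced with 101 bp paired-end reads. The authors deposited the values as RPKM to 2 decimals. The submitters' processing notes name mm10, and the aligner, counter, gene annotation, and use of strand are not given in the sources used here. The labels name 2 library kits without saying which sample had which, while the study's methods name only the NEXTflex Rapid Directional kit. Sums of the values were nearly equal (878504 to 903881), so another scaling to a fixed total cannot be told apart from RPKM. The study describes the samples of a group as different subclones, so p-values measure the spread between subclones of a line.

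The tests were limma's (version 3.58.1 in R 4.3.3; lmFit, eBayes with trend) on log2(RPKM + 1), a pseudocount of 1, in a model of 4 group means with 8 residual degrees of freedom. Python 3.11.15 and matplotlib 3.10.9 served for the descriptions and figures. Of 30705 gene names, 12082 were at 0 throughout, and 11282 had a mean of at least 1 RPKM and were tested. Pairwise comparisons (6) and an F test over the groups were adjusted by Benjamini-Hochberg over all genes tested. Depth was the common step of low values times transcript length in GENCODE M21 (transcripts of 300 to 1500 bases), and reads per gene are estimates from the longest coding transcript. Positions are from GENCODE M21 on GRCm38 and promoter sequences from RefSeq. On simulated *ptges*-KO and scramble data with 200 of 11282 genes changed, 95% were found and 3.55% of calls were false, and a comparison without a change gave 0 calls. The changes put in were larger than any difference of a member reported above, and the noise was drawn independently for each gene. The simulation therefore does not show what share of differences as small as those of the members would be found.

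The members and lists were chosen with earlier results of these data known. Named genes were all members. From the lists of other ligands, receptors, adenosine pathway, regulators, and galectins, genes were named that passed the F test with group means at least 1 apart on the log2 scale or that act directly on a member. The 2 genes most correlated with each member that passed the F test were also named. Other genes of these lists were named after their values were seen. Alternatives were a pseudocount of 0.1, no filter, median ratio scaling, quantile normalization, the replicate number as a block, only the 2 groups compared, and each sample left out in turn.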

Additional observations from a re-analysis of the deposited data

Results flagged for a closer look

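The knockouts were compared with each other directly, which is the difference between their effects against the same scramble samples. Values are log2 differences on the log2(RPKM + 1) scale with limma's adjusted p, and these genes stand here because an adjusted p under 0.05 was reached. Groups of 3 samples were not searched gene by gene for outlying samples, though *ptgs1*-KO replicate 3 stood apart in *Rn45s*.

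Among the members, *Cd276* was lower in *ptges*-KO than in *ptgs1*-KO cells (-0.59, adjusted p = 0.0130). *Cd47* was lower than in *ptgs1*-KO cells both in *ptgs2*-KO (-0.30, adjusted p = 0.0199) and in *ptges*-KO cells (-0.31, adjusted p = 0.0142), calls that were lost without *ptgs1*-KO replicate 1 (adjusted p = 0.0697 and 0.0537).

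Of the other ligands, *Vsir* was lower in *ptgs2*-KO (-1.04, adjusted p = 6.67e-05) and *ptges*-KO (-0.53, adjusted p = 0.00739) than in *ptgs1*-KO cells, and *ptges*-KO exceeded *ptgs2*-KO cells (0.51, adjusted p = 0.0158). The last of these was lost without *ptgs2*-KO replicate 2 or 3 or *ptges*-KO replicate 2, with adjusted p = 0.0666, 0.0588, and 0.0707. *Cd80* was higher in *ptgs2*-KO than in *ptgs1*-KO cells (0.91, adjusted p = 0.000472) and its *ptges*-KO level was below that of *ptgs2*-KO cells (-1.02, adjusted p = 0.000288). *Nectin1* was lower than in *ptgs1*-KO cells in *ptgs2*-KO (-0.62, adjusted p = 0.00311) and in *ptges*-KO cells (-1.42, adjusted p = 2.50e-06), and *ptges*-KO was below *ptgs2*-KO (-0.80, adjusted p = 0.000733).

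The PVR receptor gene *Tigit* was higher in *ptgs2*-KO than in *ptgs1*-KO cells (0.64, adjusted p = 0.00550) and higher in *ptges*-KO than in *ptgs1*-KO (2.01, adjusted p = 2.76e-07) and *ptgs2*-KO cells (1.37, adjusted p = 2.23e-05). *Ada* was higher than in *ptgs1*-KO cells in *ptgs2*-KO (1.01, adjusted p = 0.000681) and *ptges*-KO cells (0.66, adjusted p = 0.00952). *Socs3* was lower than in *ptgs1*-KO cells in *ptgs2*-KO (-0.94, adjusted p = 4.60e-06) and *ptges*-KO cells (-1.12, adjusted p = 6.26e-07).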

How the results depend on the processing

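*Lgals9* was called higher in each knockout than in scramble cells in all 19 settings, with log2 fold changes of 0.74 to 0.95 (adjusted p up to 0.00400) in *ptgs1*-KO, 0.58 to 0.77 (up to 0.00958) in *ptgs2*-KO, and 0.61 to 0.79 (up to 0.00330) in *ptges*-KO cells. The number of members called changed from 1 to 2 in *ptges*-KO against scramble and from 1 to 0 in *ptgs2*-KO against *ptgs1*-KO cells with only the 2 groups compared, and from 2 to 1 in *ptges*-KO against *ptgs1*-KO cells with quantile normalization. With a sample left out it was 1 to 2 in *ptges*-KO against scramble, 0 to 2 in *ptgs2*-KO against *ptgs1*-KO, 1 to 2 in *ptges*-KO against *ptgs1*-KO cells, and 1 to 3 in the F test. The cause was not tested.

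Over all genes, calls against scramble moved from 1045 to 1570 in *ptgs1*-KO cells with quantile normalization and from 1257 to 1963 in *ptgs2*-KO cells with median ratio scaling. With a sample left out they were 639 to 1161 in *ptgs1*-KO, 721 to 1552 in *ptgs2*-KO, and 1945 to 3271 in *ptges*-KO cells, and 1107 to 2236 in *ptges*-KO against *ptgs2*-KO cells. In that last comparison 763 genes were higher and 1110 lower, against 1289 and 1205 with median ratio scaling. The balance also turned in *ptges*-KO against scramble (1342 higher and 1627 lower, 2054 and 1714 with median ratio scaling, 1870 and 1606 with quantile normalization) and in *ptges*-KO against *ptgs1*-KO cells (1494 and 1915, then 2210 and 1906, and 1970 and 1791).

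Differences that were not called changed sign in 12 instances. In *ptges*-KO against *ptgs2*-KO cells *Cd47* was 0.0400 and *Pvr* 0.0448 with median ratio scaling, and 0.0235 and 0.00952 with quantile normalization. With each sample left out in turn they ranged from -0.0758 to 0.0618 for *Cd47* (above 0 without *ptgs2*-KO replicate 2 or *ptges*-KO replicate 2) and from -0.0767 to 0.0507 for *Pvr* (above 0 without *ptgs2*-KO replicate 1 or 2 or *ptges*-KO replicate 2). *Lgals9* in *ptges*-KO against *ptgs1*-KO cells was 0.00286 with quantile normalization. Without *ptgs1*-KO replicate 3, *Pvr* was 0.0842 in *ptgs1*-KO against scramble (range with each sample left out -0.103 to 0.0842) and -0.00430 in *ptges*-KO against *ptgs1*-KO cells (-0.00430 to 0.183).

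The replicate numbers were not found to pair the samples. Deviations of same-numbered samples from their group means correlated at -0.34 to 0.57 (mean 0.0123, 18 pairs), and those of different numbers at -0.47 to 0.32 (mean -0.0046, 36 pairs). With the replicate block, 1105 genes were called against scramble in *ptgs1*-KO, 1365 in *ptgs2*-KO, and 3099 in *ptges*-KO cells, the members called were as many as without it in each pairwise comparison, and 2 in place of 3 members were called in the F test, with *Cd276* lost. *Cd274*, *Nt5e*, *Tnfrsf14*, and *Cd200* were under the filter, and their few reads limit what could be measured for them.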
